A study of Arabidopsis thaliana with 28 samples.

Results

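The 2 mature RNAs of the MIR824 hairpin of Arabidopsis thaliana, ath-miR824-5p and ath-miR824-3p (miR824-5p and miR824-3p below), were followed in seedlings through 24 h of treatment with abscisic acid (ABA). They were taken by name from the deposited table and are 2 of its 421 listed miRNAs. ABA is the plant hormone that closes stomata and slows growth when water is short. The groups were seedlings under ABA and seedlings under the ethanol mock at 0.5, 1, 3, 6, 9, 12 and 24 h, with 2 libraries in each of 14 groups. All were wild type of the ecotype Col-0 and are labelled as seedling tissue, and no source used here states the ABA dose or the seedlings' age. The label of the tissue could not be set against marker genes, because the table holds miRNAs alone.

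Most plant miRNAs are cut by DICER-LIKE1 from a folded precursor as a duplex of a 5p and a 3p strand, and 1 strand is usually loaded into ARGONAUTE1 and guides the cleavage of messenger RNAs with a nearly complementary site. In miR824 the 5p strand is the known guide, found in Arabidopsis and its relatives in the mustard family, and the 3p strand is its passenger. The known target of the guide is AGL16, a MADS-box transcription factor that promotes the additional divisions of stomatal lineage cells and also acts in flowering time. In a seedling homogenate, a change in the number of cells that make a miRNA and a change in the amount per cell cannot be told apart.

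The mature strands are shown because the table lists its values under these names. Bases 2 to 8, the seed, are in capitals, and the sequences are those of RefSeq TAIR10.1.
miR824-5p: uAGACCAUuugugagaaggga
miR824-3p: cCUUCUCAucgauggucuaga
Among the 414 listed miRNAs that matched this annotation by name, 0 others had the seed of either strand, and 0 had an identical sequence. The 5p strand lies on chromosome 4 at 12625128 to 12625148 and the 3p strand at 12625721 to 12625741, both on the plus strand in MIR824 (AT4G24415, 12625094 to 12625782). The 2 strands are 572 bases apart in a precursor of 689 bases, and in the fold of that precursor with the lowest energy 18 of the 21 bases of each strand pair with the other strand. A protein-coding gene model, AT4G24413, lies on the minus strand across the first part of the precursor, at 12625014 to 12625560, so it overlaps the 5p strand and not the 3p strand. Whether reads were counted by strand is not stated, so reads from that gene over the 5p strand could not be set apart.

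The site of the guide in AGL16 (AT3G57230) is shown to place the target. It was found by matching miR824-5p to the spliced AGL16 transcripts, and capitals mark the bases that form a Watson-Crick pair with the miRNA.
AGL16 site: UCuCUUCUCACAAAUGGUCUA
The site lies on chromosome 3 at 21180537 to 21180557, plus strand, in the last exon. It is coding sequence in 4 of the 5 annotated transcripts and 3′ UTR in the other. Of its 21 bases 20 pair with miR824-5p, and the remaining 1, opposite base 19 of the miRNA, forms a G-U pair. The level of AGL16 itself was not analysed here. The core of the ABA-responsive element (ACGTG, either strand) was sought from 250 bases before to 50 bases after the annotated start of MIR824. It had 0 matches there. Of the like windows of 37896 genes 24.6% held at least 1, as did 19% of those of 326 miRNA genes. For MIR824 the annotated start is the first base of the precursor, and where its transcription begins was not examined.

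The deposited values are group means of normalised read counts. The 2 library values behind a mean were recovered where only 1 pair of whole counts could give it, and the letters a and b name the library with the larger and with the smaller size factor. This gave both libraries of miR824-3p in 13 of 14 groups and those of miR824-5p, which is more abundant, in 4 of 14. The group totals lay between 4305800 and 7644818, and the recovered counts, which leave out many abundant miRNAs, summed to 218054 to 1017841 for a library. Between the members of a pair of libraries the log2 difference had an SD, over miRNAs with a mean of at least 10, of 0.31 to 0.64. No label states that paired libraries are from separate cultures. The p-values of limma fits of library values therefore measure the spread between these samples, which may be technical. Those of limma fits of group means measure how the difference between ABA and mock varied between times.

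Both strands were abundant. Under mock, miR824-5p ranked 21 to 29 of the 421 listed miRNAs and held 0.61% to 1.05% of the group total, and miR824-3p ranked 57 to 68 and held 0.0798% to 0.141%. Under ABA the ranks ran from 19 to 34 and from 46 to 79, with shares of 0.528% to 1.88% and 0.054% to 0.296%.

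The first question was how the guide strand followed the time of treatment. Under ABA miR824-5p was below mock at the first 2 times and above it at the other 5, and the difference became more positive at each time from 1 to 24 h. In mock the mean normalised read count of miR824-5p was 46796 at 0.5 h, 69872 at 1 h, 46774 at 3 h, 36642 at 6 h, 50240.3 at 9 h, 49285 at 12 h and 30038 at 24 h. Under ABA it was 37067, 40383, 53068, 51901, 90150.1, 109323 and 85987 at the same times. The 3 latest ABA groups thus had the highest means of all 14, and the mock mean at 24 h was the lowest. The single libraries are known in 4 groups. At 0.5 h they were at 55485 and 38106 in mock and at 38257 and 35877 in ABA, so the groups overlapped. The ABA libraries were at 39317 and 41449 at 1 h and at 55497 and 48304 at 6 h, closer to each other than the 2 mock libraries of 0.5 h.

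**Figure D1:**
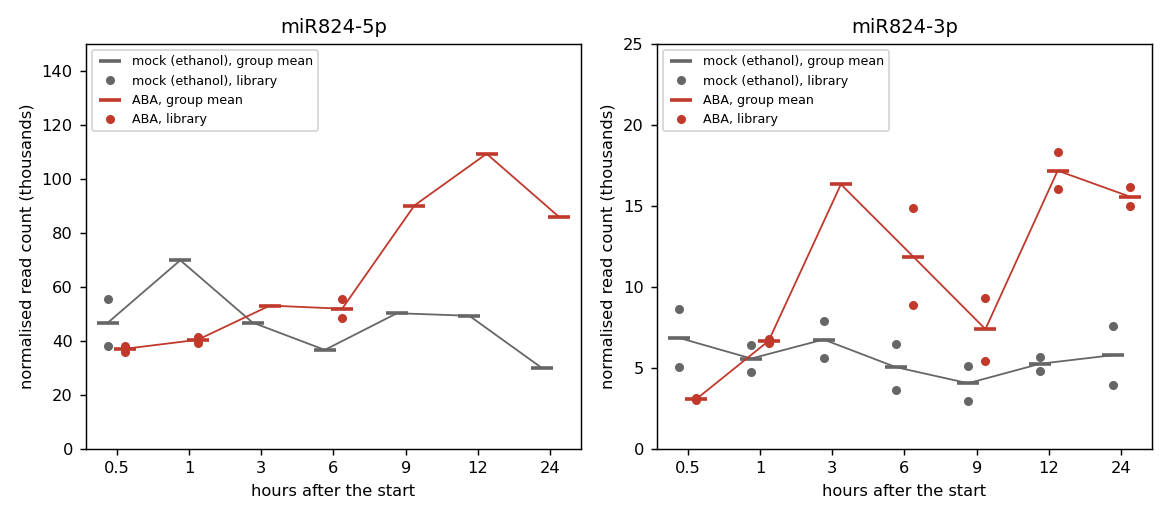
Normalised read count divided by 1000 (y axis, linear from 0) of miR824-5p (left) and miR824-3p (right) against hours after the start (x axis, times evenly spaced), with mock in grey and ABA in red; bars are group means joined by lines and points are the 2 libraries where both could be recovered. From 9 h on, the ABA mean of miR824-5p lies at 85987 or above and its mock mean at 50240.3 or below, while both ABA libraries of miR824-3p lie above all mock libraries at 6, 12 and 24 h.

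The log2 ratio of the ABA to the mock mean of miR824-5p was -0.34 at 0.5 h, -0.79 at 1 h, 0.18 at 3 h, 0.50 at 6 h, 0.84 at 9 h, 1.15 at 12 h and 1.52 at 24 h. At 1 h mock was 1.73-fold above ABA, and at 24 h ABA was 2.86-fold above mock. Among the 349 miRNAs with a mean of at least 10 over the groups, the ratio of miR824-5p ranked 334 from the top at 1 h, 19 at 12 h and 11 at 24 h. The median ratio of these miRNAs stayed between -0.06 and 0.04 at every time.

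In the authors' deposited table miR824-5p passed an adjusted p of 0.05 at 12 h (9.66e-17) and at 24 h (2.12e-08), and not at the other 5 times (0.104 to 0.93). The share of miRNAs that passed in the authors' deposited table was 11.2% at 0.5 h, 4.65% at 1 h, 0.246% at 3 h, 3.87% at 6 h and 5.39% at 9 h. Of all miRNAs with an adjusted p in the authors' deposited table, 24% passed at 12 h and 15.3% at 24 h. Those that passed with ABA higher were 12% and 5.6% of the same totals in the authors' deposited table. The library spread behind these calls is only bounded. At 24 h the mock libraries were at 29615 and 30462, taking the 1 split within 4-fold. The 5 possible splits of the ABA mean within 4-fold put its libraries between 35302 and 136673, so the groups did not overlap under any of them. Among miRNAs with library values at 24 h, 30.5% had ABA higher without overlap. At 12 h the possible splits within 4-fold put the mock libraries between 44429.6 and 54140.2. Those of ABA lay between 45392.5 and 173254, so the groups may overlap there. The bounds of the mock and ABA libraries also overlapped at 0.5, 1, 3, 6 and 9 h. In a limma fit of library values, with every uncertain miRNA given its widest or its narrowest split within 4-fold, the adjusted p of miR824-5p was 0.31 or 4.31e-06 at 24 h and 0.659 or 0.00011 at 12 h. At 1 h it was 0.824 or 0.00588, and at 9 h 0.393 or 0.00254. Of 416 miRNAs the narrowest splits called 48 at 1 h, 62 at 9 h, 55 at 12 h and 107 at 24 h. The widest splits called 34, 44, 39 and 71 at the same times.

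The change of the ABA effect with time was then tested as the mean log2 ratio of the 4 late times (6 to 24 h) minus that of the 3 early times (0.5 to 3 h), over all 349 miRNAs. For miR824-5p the mean ratio went from -0.32 early to 1.00 late. The difference was 1.32 on the log2(value + 1) scale (SE 0.29) and passed (limma, Benjamini-Hochberg adjusted p = 0.0218, the 14th smallest p of 349). All 4 late ratios lay above all 3 early ones, and the exact two-sided permutation test over the 35 placements of the times gave p = 0.0286, the smallest it can give. In all, 25 of 349 miRNAs passed (7.16%), 10 with a higher late effect (2.87%) and 15 with a lower one (4.3%). Among those 10 were miR398b-3p (1.31), which targets copper superoxide dismutases, miR2111b-5p (1.30), known from low phosphate, and miR866-5p (0.83). The call of miR824-5p was lost without 0.5, 1, 12 or 24 h (adjusted p = 0.0566, 0.136, 0.0671 and 0.0741, with differences of 1.31, 1.08, 1.27 and 1.15), and under quantile normalization the difference was 0.71 (adjusted p = 0.222).

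**Figure D2:**
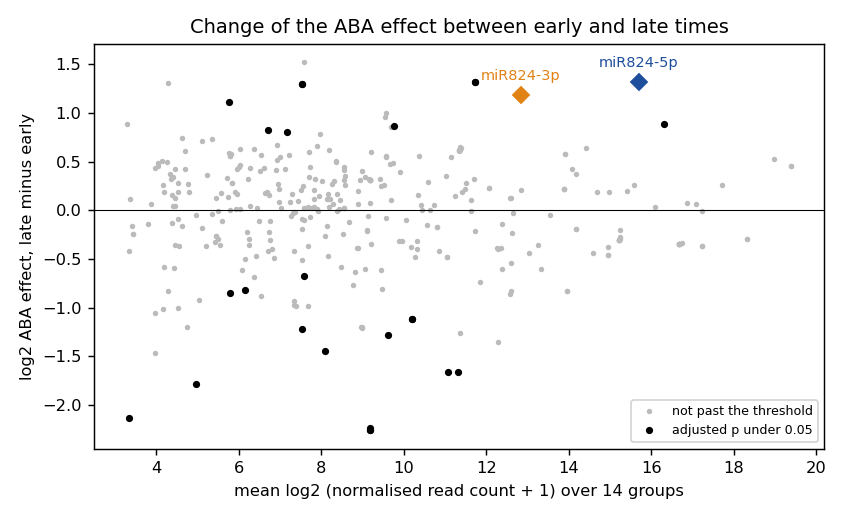
Late minus early log2 effect of ABA (y axis) against the mean log2 of normalised read count plus 1 over 14 groups (x axis) for 349 miRNAs; black points had an adjusted p under 0.05 and diamonds are the 2 strands of miR824. miR824-5p at 1.32 passed and miR824-3p at 1.18 did not.

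Averaged over all 7 times, the early and late differences of miR824-5p offset each other only in part. The mean log2 ratio was 0.44 (SE 0.25), above 0 at 5 of 7 times, and did not pass (limma adjusted p = 0.189; exact two-sided sign-flip test over 7 times p = 0.203, smallest possible p 0.0156). In that fit 112 of 349 miRNAs passed (32.1%).

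The mean of the passenger strand, miR824-3p, was below mock at 0.5 h and above it at the other 6 times, with the highest ABA means at 3, 12 and 24 h. Whether its timing differed from that of the guide was not tested. In the libraries of mock, miR824-3p was at 5074 and 8622 (library a, then b) at 0.5 h, 6419 and 4729 at 1 h, 5585 and 7914 at 3 h and 3644 and 6443 at 6 h. At 9, 12 and 24 h mock was at 5125 and 2970.4, 4822 and 5685, and 3967 and 7592. Mock thus kept to a band, and its 2 libraries often differed, by a median of 0.76 in log2 over the 7 groups. Under ABA the libraries of miR824-3p were at 3161 and 2991 at 0.5 h, 6798 and 6532 at 1 h, 8863 and 14883 at 6 h and 5451 and 9328 at 9 h. At 12 h they were at 16049 and 18306 and at 24 h at 14986 and 16158. The ABA mean at 3 h was 16333, and its 7 possible splits put the libraries between 10647 and 22019. The values under ABA therefore started near the lowest mock library, had a mean well above the mock libraries at 3 h, came back towards them at 9 h and were high again at 12 and 24 h.

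At each of the 6 times with both groups recovered, the ABA and mock libraries of miR824-3p did not overlap. ABA was lower at 0.5 h and higher at 1, 6, 9, 12 and 24 h. Such a lack of overlap between 2 and 2 libraries is common in this table: it held with ABA lower for 30.2% of the miRNAs at 0.5 h and with ABA higher for 25.2% at 1 h, 25.2% at 6 h, 23.4% at 9 h, 29.6% at 12 h and 30.5% at 24 h. At 3 h none of the 7 splits of the ABA mean gave a library value inside the mock range, and ABA was higher without overlap for 20.9% of the miRNAs.

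In the limma fit of the library values, miR824-3p rose at 6 h by 1.24 (SE 0.37, adjusted p = 0.0372), at 12 h by 1.71 (SE 0.38, adjusted p = 0.00398) and at 24 h by 1.5 (SE 0.37, adjusted p = 0.008), each a log2 difference of ABA minus mock. The share of miRNAs that passed with ABA higher was 4.24% at 6 h, 6.91% at 12 h and 10.4% at 24 h, and in either direction 9.02%, 10.8% and 21.4%. At the other times miR824-3p did not pass, with -1.10 at 0.5 h (SE 0.37, adjusted p = 0.0582), 0.27 at 1 h and 0.87 at 9 h (adjusted p = 0.128), where 8.47%, 9.28% and 13.4% of miRNAs passed in either direction. Each call rested on pairs of libraries. At 6 h it was lost without mock library a (0.83, adjusted p = 0.35), without ABA library b (0.87, adjusted p = 0.332) or with the 4 libraries of that time alone (adjusted p = 0.0646). It was also lost without mock library a or ABA library b at 12 h (adjusted p = 0.0537 and 0.0551) and at 24 h (0.157 and 0.0535).

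The authors' deposited table had adjusted p-values for miR824-3p of 8.48e-25 at 12 h and 1.27e-06 at 24 h, and 0.209 to 0.952 at the other 5 times. At 3 h, where the ratio of means was 2.42-fold, the authors' deposited table gave 0.296 and passed 0.246% of all miRNAs. With the widest and the narrowest split of uncertain miRNAs, the limma adjusted p of miR824-3p at 3 h was 0.0765 and 0.0289.

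**Figure D3:**
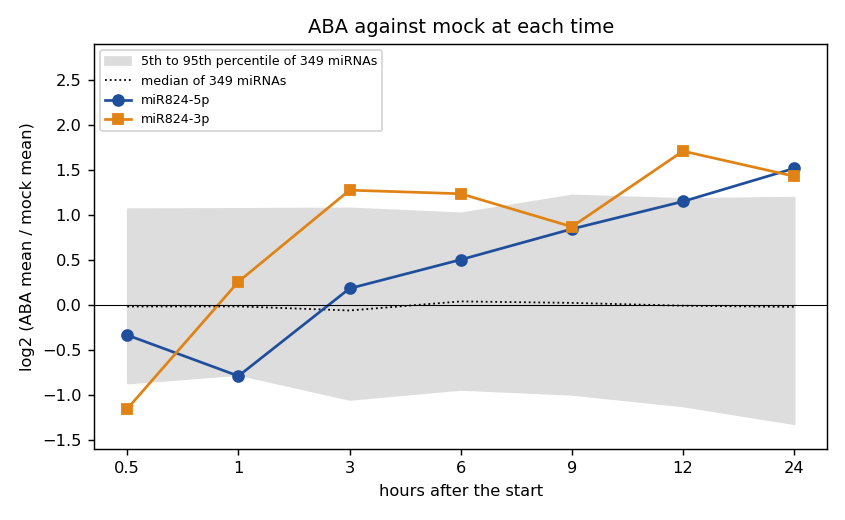
Log2 ratio of the ABA mean to the mock mean (y axis) against hours after the start (x axis, times evenly spaced) for miR824-5p (blue circles) and miR824-3p (orange squares), with the median (dotted) and the 5th to 95th percentile (grey) of 349 miRNAs. The guide goes from -0.79 at 1 h to 1.52 at 24 h, and the passenger from -1.15 at 0.5 h to 1.27 at 3 h and 1.71 at 12 h.

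Over the 7 times the mean log2 ratio of miR824-3p was 0.80 (SE 0.29), above 0 at 6 of 7 times, and just missed the threshold (limma adjusted p = 0.0555; exact sign-flip test p = 0.0781). Without 0.5 h, the 1 time at which it was below mock, the mean was 1.13 (adjusted p = 0.000725). It also passed without 1 of 5 libraries, with adjusted p = 0.0223 without mock b at 0.5 h, 0.0487 without mock a at 1 h, 0.0404 without mock a at 9 h, 0.0448 without ABA a at 9 h and 0.0498 without mock b at 24 h. Without 3, 6, 9, 12 or 24 h the mean was 0.65 to 0.79 and the adjusted p 0.106 to 0.137, and under quantile normalization it was 0.72 (adjusted p = 0.106). The late minus early difference was 1.18 (SE 0.45, adjusted p = 0.112; exact permutation p = 0.0857), from a mean ratio of 0.13 early to 1.31 late. Without 3 h, the early time at which the strand was already high, it was 1.76 and passed (adjusted p = 0.00686), and without 0.5 h it was 0.54 (adjusted p = 0.271).

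The balance of the 2 strands was read as the ratio of miR824-5p to miR824-3p. The guide was the more abundant strand in all 14 groups. In mock the ratio of the means was 6.83 at 0.5 h, 12.5 at 1 h, 6.93 at 3 h, 7.27 at 6 h, 12.4 at 9 h, 9.38 at 12 h and 5.2 at 24 h. Under ABA it was 12.1, 6.06, 3.25, 4.37, 12.2, 6.36 and 5.52. The ratio was thus lowest under ABA at 3 and 6 h, and close to mock at 9 and 24 h.

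In single libraries the strand ratio was 10.9 and 4.42 in mock at 0.5 h, against 12.1 and 12 in ABA. It was 5.78 and 6.35 in ABA at 1 h and 6.26 and 3.25 in ABA at 6 h. The 2 mock libraries of 0.5 h were thus far apart, and both lay below the ABA libraries. The share of other hairpins with such a separation was not counted. The log2 strand ratio of ABA minus mock was 0.82 at 0.5 h, -1.05 at 1 h, -1.09 at 3 h, -0.73 at 6 h, -0.02 at 9 h, -0.56 at 12 h and 0.09 at 24 h. The mean was -0.36 (SE 0.23), below 0 at 5 of 7 times. It did not pass in the limma fit over the 80 hairpins with both strands tested (adjusted p = 0.268), in which 28 passed (35%). Without 0.5 h, the time with the largest difference above 0, it was -0.56 and passed (limma adjusted p = 0.0421), as did 28 of 80 hairpins. With any other single time left out it was -0.44 to -0.24 and did not pass (limma adjusted p = 0.226 to 0.511).

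**Figure D4:**
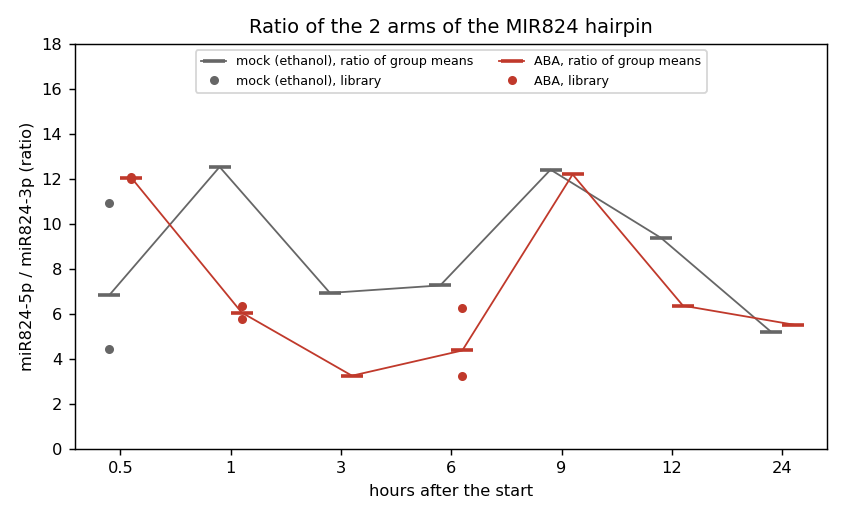
Ratio of miR824-5p to miR824-3p (y axis, linear from 0) against hours after the start (x axis, times evenly spaced) in mock (grey) and ABA (red); bars are ratios of group means and points are single libraries where both strands were recovered. The ratio is 3.25 in ABA at 3 h against 6.93 in mock, and 12.2 against 12.4 at 9 h.

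The authors may have scaled each time on its own, which no source used here states. The levels were therefore also put on 1 scale over all groups by the median of ratios, with factors of 0.833 to 1.22. On this scale miR824-5p ran in the order ABA at 12 h (103583), 9 h (95659) and 24 h (93274), then ABA at 6 h (60235), mock at 1 h (58730.4), ABA at 3 h (52480.0) and mock at 9, 3, 12, 0.5 and 6 h (51384 to 44013). ABA at 0.5 h (35843), ABA at 1 h (33156) and mock at 24 h (32973) were the lowest. Of the 13 pairs of neighbours 1 could be judged by its libraries, ABA at 0.5 and 1 h, which did not overlap. For miR824-3p the order was ABA at 24 h (16891), 12 h (16276), 3 h (16152) and 6 h (13780), then ABA at 9 h (7841) and mock at 3, 0.5, 24 and 6 h (6708 to 6058). ABA at 1 h (5472), mock at 12, 1 and 9 h (4898 to 4140) and ABA at 0.5 h (2974) followed. Of the 13 neighbouring pairs 9 had overlapping libraries and 2 did not, ABA at 6 above ABA at 9 h and ABA at 1 h above mock at 12 h.

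A change with time common to both treatments was not found. In the additive limma fit of time and treatment on this scale the adjusted p of the F test was 0.733 for miR824-5p and 0.491 for miR824-3p. That limma test called 0 of 349 miRNAs (0%), with 45 at an unadjusted p under 0.05. A straight line on log2 hours called 21, and neither strand (adjusted p = 0.237 and 0.181).

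Over the 14 group means on this scale, the 2 strands had a Pearson r of 0.65 with each other. These means share their libraries and scaling, so the r is a description. Among 181 distinct sequences with a mean of at least 100, miR824-3p ranked 12 in likeness to miR824-5p. The most like were miR866-5p (0.85), miR866-3p (0.79), miR8167f (0.78), miR5645a (0.73) and miR407 (0.72), and the most opposite were miR390a-5p (-0.84), which triggers the TAS3 small RNAs, miR846-3p (-0.80) and miR3932b-5p (-0.80). The profile of miR824-3p was most like those of miR2111b-3p (0.81), miR8173 (0.79), miR408-3p (0.79), which targets plantacyanin and laccases, miR2111b-5p (0.75) and miR866-3p (0.68). Its most opposite profiles were those of miR396b-3p (-0.75), miR829-5p (-0.74) and miR4245 (-0.73). miR866-3p was thus among the 5 profiles most like each strand, with a mean log2 ratio of 0.72.

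Other miRNAs were read in 3 lists. Of the young miRNAs with both strands listed and a range of high numbers, a group of recent origin that includes miR824, 38 of 50 were tested, and 6 rose and 10 fell as a mean over the times (limma, adjusted p under 0.05), against 14.3% and 17.8% of all 349. Their median log2 ratio was -0.18, against -0.02 for all tested miRNAs. The most abundant besides miR824 were miR822-5p (0.18, adjusted p = 0.228), miR822-3p, which rose by 0.54 (adjusted p = 0.0414), miR846-3p (-0.42, adjusted p = 0.0555) and miR846-5p (0.14). For late minus early, 2 of the 38 were higher, miR824-5p and miR866-5p, and 1 was lower, against 2.87% and 4.3% of all 349.

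The miRNAs known in flowering time (miR156, miR157, miR159, miR169, miR172, miR319 and miR399), the process in which AGL16 also acts, had 60 of 62 members tested, with 37 distinct sequences. Of the 60 names, some of which share a sequence, 3 rose and 16 fell as a mean over the times (limma), against 14.3% and 17.8% of all 349, with a median of -0.11 against -0.02. For late minus early 0 were higher and 4 lower, against 2.87% and 4.3% of all. Those lower were miR169b-3p, miR169f-3p, miR169g-3p and miR399c-5p. Their partner strands miR169b-5p, miR169f-5p, miR169g-5p and miR399c-3p were at -0.39, -0.35, 0.02 and -0.07. None of these partners passed (limma, adjusted p = 0.295 to 0.953). The most abundant of the list were miR159a and miR159b-3p, which target GAMYB-like factors, and miR319a and miR319c, which target TCP factors. As a mean over the times they were at 0.17, 0.17, 0.13 and 0.20, and none of these 4 passed. The last list held miRNAs tied to genes of the silencing machinery, namely miR162, miR168 and miR403, which target DCL1, AGO1 and AGO2, and miR838, which comes from an intron of DCL1. Of its 11 names, which hold 8 sequences, 2 rose and 1 fell as a mean over the times, against 14.3% and 17.8% of all 349, with a median of 0.25 against -0.02. For late minus early 0 were higher and 0 lower, against 2.87% and 4.3% of all. The fall was that of miR403-3p, the regulator of AGO2, by 0.46 (adjusted p = 0.0101), while miR168a-5p, the regulator of AGO1, was at 0.25 (adjusted p = 0.187), miR162b-3p, of DCL1, at 0.29 (adjusted p = 0.189) and miR168a-3p at -0.13.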

How the data were processed

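Small RNA reads of 28 libraries went through FastQC and STAR with the TAIR10 build, per the submitters' processing notes. No source used here names the authors' counter, miRNA annotation, normalization or test. Per the file headers, the authors deposited 1 mean signal per miRNA, treatment and time, and 1 adjusted p-value per time. The log2 ratios were recomputed from these means. The members and lists were chosen with earlier results of these data known.

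Each deposited value was taken as the mean of 2 whole counts, each divided by the size factor of its library. The factors (0.687 to 1.36) were estimated from the low values, within the rounding of the deposited digits, and 5338 of 5894 values (90.6%) had 1 possible split, with 0 values that had none. The limit for uncertain splits was set at 4-fold between libraries. Of the 1053 split values over 1000, 2 differed by more than that, both in mock at 3 h. Tested on simulated data of 421 miRNAs in 14 groups, 0 of 5357 unique splits were wrong.

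Log2 values carried a pseudocount of 1, and miRNAs with a mean of at least 10 were tested (349). Library values were tested where all 4 libraries of a time were known and at least 2 of all libraries reached 1. Fits used limma 3.58.1 (eBayes with trend, R 4.3.3), two-sided, with Benjamini-Hochberg adjustment over all tested miRNAs and a threshold of 0.05. Fits of group means take the 7 times as units. Data of 350 miRNAs were simulated with a biological coefficient of variation of 0.2 in all groups. In them late minus early called 45.5% of those changed 1.5-fold, 91.2% changed 2-fold and 2.01% of the unchanged. Beyond the set changes the simulated ABA effect did not vary between times, so these shares need not hold for the strands of miR824. Named by rule were both strands, the 5 most and 3 least like profiles for each, and the 4 most abundant sequences of each list. The miRNAs named among the late minus early calls were chosen after their values were seen. Precursor folding used RNAfold 2.7.2. Sequences and positions are of RefSeq TAIR10.1, in which 414 of 421 names matched, and no position was carried between builds. The alternatives were other pseudocounts, filters, scalings and variance models, 1 row per sequence, and leaving out times or libraries.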

Additional observations from a re-analysis of the deposited data

Results flagged for a closer look

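The effect of ABA on miR824-5p differed between early and late times, by a test of the difference itself. The late minus early difference was 1.32 in log2 (SE 0.29, limma adjusted p = 0.0218), with 4 of 4 late ratios above 0 and 2 of 3 early ratios below 0. The call was lost without 0.5, 1, 12 or 24 h (adjusted p = 0.0566 to 0.136) and under quantile normalization (0.71, adjusted p = 0.222). Its cause was not tested.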

How the results depend on the processing

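All values and counts here are from limma with the adjustment described above. No result reversed its sign. For late minus early, quantile normalization gave 0.71 for miR824-5p, which lost its call (adjusted p = 0.222), and called 5 miRNAs, and leaving out 1 time gave 1.08 to 1.57 for miR824-5p, 0.54 to 1.76 for miR824-3p and 0 to 52 called miRNAs, with 0 called without 1 h, where 74 had an unadjusted p under 0.05. For the mean over times, miR824-3p passed with 1 row for each sequence (0.80, adjusted p = 0.0496) and in library values of the 6 times without 3 h (0.75, adjusted p = 0.000596, an alternative chosen after seeing the data). Library values called 170 miRNAs, and leaving out a time or library gave 0.65 to 1.13 for miR824-3p. The strand ratio ran from -0.56 to -0.24 and its calls from 17 to 28 with 1 time left out. A slope on log2 hours called 21 miRNAs. With the 4 libraries of a time alone, 54 miRNAs were called at 0.5 h, 5 at 3 h, 19 at 6 h and 98 at 12 h, and miR824-3p was called at 0.5 h (-1.10, adjusted p = 0.0178) and 9 h (0.87, adjusted p = 0.0421) and lost at 6 h (1.24). The widest splits lost the call at 6 h (1.24, adjusted p = 0.0671), and the narrowest called 48 at 3 h and 55 at 6 h. Both were chosen after seeing the data. With 1 library left out, miR824-3p ran from 0.83 to 1.66 at 6 h, 1.59 to 1.83 at 12 h and 1.04 to 1.97 at 24 h, and the calls from 11 to 16 at 0.5 h, 15 to 29 at 1 h, 9 to 39 at 3 h, 15 to 42 at 6 h, 15 to 54 at 9 h, 18 to 23 at 12 h and 32 to 72 at 24 h. Where a call was lost, the cause was not tested. Another 279 values kept their direction and side of the threshold, or for counts stayed within 1.5 times. No paired analysis was possible because the columns carry no replicate numbers. The depth of a whole library is unknown, and the most abundant groups of miR824-5p have no library values.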
